A study of Mus musculus with 11 samples.

Results

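Keratins *Krt6a*, *Krt6b*, *Krt16* and *Krt17* are the stress keratins of mouse skin, and these 4 genes were taken by name from 24421 genes listed in the count tables, 52 of which are keratins. Keratin filaments form from obligate pairs of a type II and a type I keratin, and they give epidermal cells their mechanical strength. *Krt6a* and *Krt6b* encode type II keratins, and *Krt16* and *Krt17* encode type I partners. In unwounded skin they are found mainly in hair follicles, nail and footpad, and after injury they are induced in the epidermis at the wound edge, where they are commonly used as markers of activated keratinocytes.

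The study compared wound-front keratinocytes of WT mice with those of mice in which floxed *Grhl3*, a transcription factor of epidermal differentiation and repair, was deleted by a *Krt14*-driven Cre (*Grhl3*-cKO). Littermates of both sexes on a C57BL/6 background (C57BL/6J in the study's methods), aged 8 weeks, received 4 mm full-thickness punch wounds on the back. Wound margins were collected at day 3, with distal unwounded skin, and cells were sorted as CD49f positive and negative for CD45, CD31 and TER119. RNA-seq covered 2 WT unwounded, 2 WT wounded, 1 *Grhl3*-cKO unwounded and 2 *Grhl3*-cKO wounded libraries, and ATAC-seq, which maps open chromatin, covered 1 library of each of the 4 conditions. The *Krt14* promoter drives Cre in basal keratinocytes and their descendants, and the unwounded skin lay outside the wound on a wounded back. Counts on genes summed to 15488699 and 16807451 in WT unwounded replicates 1 and 2, and to 16653948 and 15418631 in WT wounded replicates 1 and 2. They summed to 13497283 in the *Grhl3*-cKO unwounded library, titled replicate 2, and to 15223569 and 14279568 in *Grhl3*-cKO wounded replicates 1 and 2.

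The *Grhl3*-cKO unwounded library stood apart from the other 6. *Xist*, an RNA of the inactive X chromosome, was at 1101 CPM (counts scaled to the gene total of each library) in it and at 0.178 to 1.92 CPM in the others. The Y-linked genes *Ddx3y*, *Eif2s3y*, *Kdm5d* and *Uty* had 0 counts in it, which allows up to 0.222 CPM by counting error alone, and *Ddx3y* was at 88.7 to 130 CPM in each of the others. Its title and its other label give different replicate numbers. Sex-linked transcripts, genotype and wounding cannot be told apart in comparisons that rest on it. Averaged results for the stress keratins and the lists are given with and without it, and the response within *Grhl3*-cKO and the difference of responses could not be fitted without it.

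RNA of *Grhl3* itself was at 122 and 83.2 CPM in WT unwounded, 110 and 90.0 CPM in WT wounded, 76.2 CPM in *Grhl3*-cKO unwounded, and 116 and 104 CPM in *Grhl3*-cKO wounded libraries. Wounded libraries of the 2 genotypes differed by a log2 fold change of 0.17 (SE 0.21, adjusted p = 1 in edgeR's quasi-likelihood test). Counts per gene do not separate the floxed exons from the rest, so deletion was not tested here and the groups are named by their labels. The labels do not say that libraries came from separate animals, so the p-values measure only the spread between samples.

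Parts of the *Krt6a*, *Krt6b* and *Krt16* transcripts are shared with other genes, which limits how reads can be assigned. Of all 100-base windows along the exons, 42.9% were found elsewhere in the annotated transcripts for *Krt6a*, 30.6% for *Krt6b*, 24.3% for *Krt16* and 0% for *Krt17*. *Krt6b* held 26.6% of the *Krt6a* windows and *Krt6a* held 30.1% of the *Krt6b* windows. For *Krt16*, 21.1% of windows lay in the predicted gene *Gm11597*, which the count tables do not list. Reads set aside as not unique were taken as a share of all tallied reads, on genes or not. They came to 4.02% and 4.56% in WT unwounded, 4.18% and 4.67% in WT wounded, 3.46% in *Grhl3*-cKO unwounded, and 4.74% and 4.16% in *Grhl3*-cKO wounded libraries. That share was lowest in the library with the lowest *Krt6a* count and highest in the libraries with the highest *Krt6a* counts, and its part in the levels below was not tested.

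*Krt6a* (ENSMUSG00000058354.7; GRCm38 chromosome 15, 101689910 to 101694307, minus strand), the main type II stress keratin, was at 518 and 1642 CPM in WT unwounded, 1483 and 3402 CPM in WT wounded, 319.7 CPM in *Grhl3*-cKO unwounded, and 2371 and 986 CPM in *Grhl3*-cKO wounded libraries. Wounded and unwounded libraries overlapped, since WT unwounded replicate 2 lay above WT wounded replicate 1 and *Grhl3*-cKO wounded replicate 2. The highest library was 10.6 times the lowest. Group means were 1080 ± 795 CPM (SD, n = 2) for WT unwounded, 2443 ± 1357 CPM (SD, n = 2) for WT wounded and 1678 ± 980 CPM (SD, n = 2) for *Grhl3*-cKO wounded. The WT wounded mean lay above the WT unwounded mean by about the larger SD, and the *Grhl3*-cKO wounded mean differed from each of them by less than its own SD.

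*Krt6b* (ENSMUSG00000023041.7; chromosome 15, 101676023 to 101680287, minus strand), its close paralog, was at 39.4 and 266 CPM in WT unwounded, 233 and 1075 CPM in WT wounded, 4.15 CPM in *Grhl3*-cKO unwounded, and 645 and 296 CPM in *Grhl3*-cKO wounded libraries. The *Grhl3*-cKO unwounded value rested on 56 counts, and the highest library was 259 times as high. Among WT libraries the groups overlapped, with unwounded replicate 2 above wounded replicate 1, while both *Grhl3*-cKO wounded libraries lay above all unwounded ones. Group means were 153 ± 160 CPM (SD, n = 2) for WT unwounded, 654 ± 595 CPM (SD, n = 2) for WT wounded and 470 ± 247 CPM (SD, n = 2) for *Grhl3*-cKO wounded.

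*Krt16* (ENSMUSG00000053797.10; chromosome 11, 100246091 to 100248902, minus strand), a type I partner of *Krt6*, was at 1790.2 and 2009 CPM in WT unwounded, 2452 and 3350.4 CPM in WT wounded, 1344 CPM in *Grhl3*-cKO unwounded, and 2887 and 2152 CPM in *Grhl3*-cKO wounded libraries. All 4 wounded libraries lay above all 3 unwounded ones. *Krt16* was the only stress keratin, 1 of 4, with this separation, which 2.74% of 14045 tested genes showed. Within WT it was again the only 1 of 4 whose wounded pair lay above the unwounded pair, beside 15.2% of tested genes. Its group means were 1900 ± 155 CPM (SD, n = 2) for WT unwounded, 2901 ± 635 CPM (SD, n = 2) for WT wounded and 2520 ± 520 CPM (SD, n = 2) for *Grhl3*-cKO wounded.

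*Krt17* (ENSMUSG00000035557.9; chromosome 11, 100256217 to 100261029, minus strand), a type I keratin that is also made in hair follicles, was at 2101 and 1641 CPM in WT unwounded, 2326 and 1816 CPM in WT wounded, 943 CPM in *Grhl3*-cKO unwounded, and 1096 and 1401 CPM in *Grhl3*-cKO wounded libraries. Libraries divided by genotype label and not by wounding: for *Krt17*, 1 of 4, all 4 WT libraries lay above all 3 *Grhl3*-cKO libraries, as they did for 4.92% of tested genes. Of the 4 genes, *Krt17* alone had both *Grhl3*-cKO wounded libraries below both WT wounded libraries, as had 17.2% of tested genes. Group means were 1871 ± 325 CPM (SD, n = 2) for WT unwounded, 2071 ± 361 CPM (SD, n = 2) for WT wounded and 1249 ± 215 CPM (SD, n = 2) for *Grhl3*-cKO wounded. The separate levels of the 4 genes in all 7 libraries are plotted by condition.

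**Figure D1:**
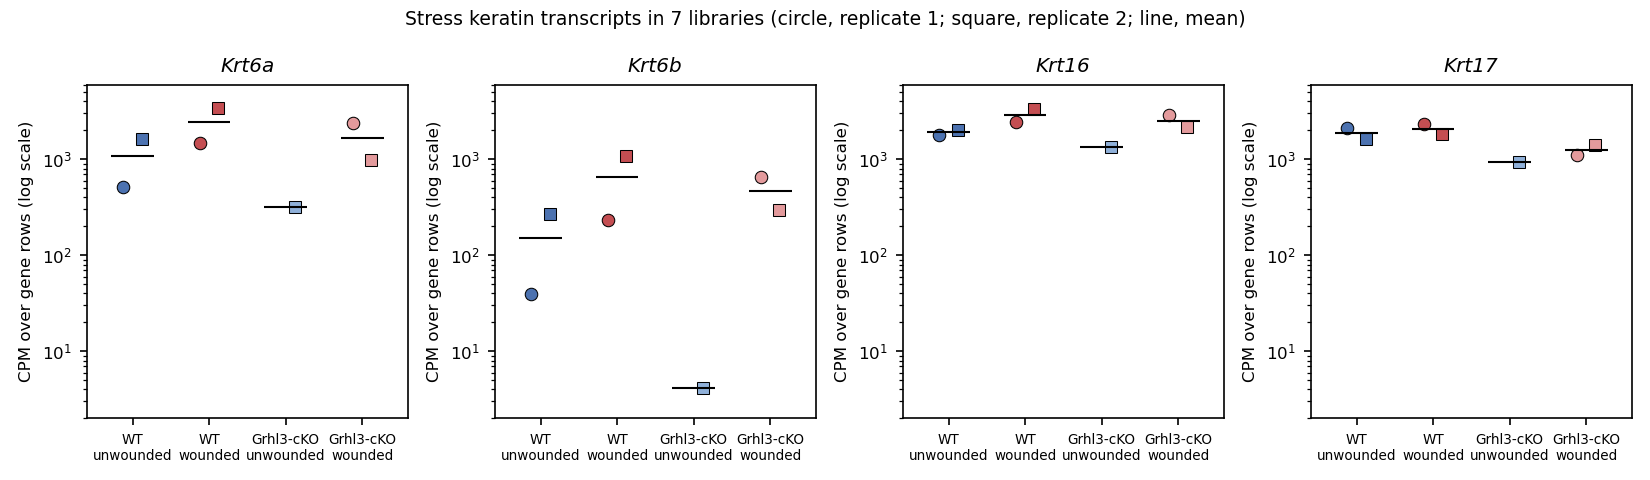
Level of each stress keratin in CPM (log scale) in every RNA library by condition, with lines at group means. *Krt6b* spans 4.15 to 1075 CPM, and *Krt17* stays between 943 and 2326 CPM.

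Levels were compared between genes per length, as CPM per kilobase of full exon length, with no correction for shared windows. Such windows made up 42.9% for *Krt6a*, 30.6% for *Krt6b*, 24.3% for *Krt16* and 0% for *Krt17*. Their part in the order of the genes was not tested. Per kilobase, *Krt16* was the highest of the 4 in 6 of 7 libraries, from 859 in *Grhl3*-cKO unwounded to 2141 in WT wounded replicate 2. WT unwounded replicate 1 was the exception, with *Krt17* at 1354 and *Krt16* at 1144. *Krt6b* was lowest in all 7 libraries, from 1.86 to 481. *Krt6a* was second in WT wounded replicate 2, at 1407, and in *Grhl3*-cKO wounded replicate 1, at 981, and lay below *Krt17* elsewhere. These 2 libraries also had the highest *Krt6a* in CPM.

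Together the 4 genes made up 13.3% and 13.5% of keratin counts per kilobase in WT unwounded, 20.4% and 19.7% in WT wounded, 7.42% in *Grhl3*-cKO unwounded, and 15.3% and 12.8% in *Grhl3*-cKO wounded libraries. WT wounded libraries stood above the rest, and *Grhl3*-cKO wounded replicate 2 lay below both WT unwounded libraries. The share was not tested.

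The first comparison asks how WT keratinocytes at the wound margin differ from distal unwounded ones. *Krt6a* had a log2 fold change of 1.21 (SE 0.45, unadjusted P = 0.0169, adjusted p = 0.858). For *Krt6b* it was 2.13 (SE 0.67, unadjusted P = 0.00583, adjusted p = 0.693). *Krt16* had 0.64 (SE 0.18, unadjusted P = 0.00294, adjusted p = 0.559), the smallest P of the 4, with a smaller difference but closer replicates. *Krt17* had 0.17 (SE 0.17, unadjusted P = 0.334, adjusted p = 1). Thus 0 of 4 stress keratins passed an adjusted p of 0.05 in edgeR, where 4 of 14045 genes (0.0285%) did, and 3 of 4 were higher at an unadjusted P under 0.05, as were 3.18% of genes. DESeq2 called 24 genes and 0 of the 4. In bulk RNA, fewer cells of a type and less RNA per cell cannot be told apart.

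Replicate numbers of the titles were not stated to mark animals. Between WT libraries of the same number, the wounded level of *Krt6a* was 2.87 and 2.07 times the unwounded level for replicates 1 and 2. For *Krt6b* it was 5.92 and 4.04 times, for *Krt16* 1.37 and 1.67 times, and for *Krt17* 1.11 and 1.11 times. All 4 genes were thus higher in the wounded library of both numbers, and the share of all genes higher in both was not counted. For scale, 50.4% of tested genes had a log2 fold change above 0 in the WT comparison.

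Single libraries moved these values. Without WT wounded replicate 1, *Krt6b* passed the threshold at a log2 fold change of 2.85, and without WT wounded replicate 2 it was 0.62. *Krt6a* was 0.47 without WT wounded replicate 2 and 2.25 without WT unwounded replicate 2. *Krt17* turned to −0.01 without WT unwounded replicate 2 and to −0.02 without WT wounded replicate 1. The direction for *Krt6a*, *Krt6b* and *Krt16* was higher in wounded libraries under each of these omissions.

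Within the *Grhl3*-cKO label, 2 wounded libraries were compared with the lone unwounded library, which the fit assumes to vary like the other groups. *Krt6b* was higher by a log2 fold change of 6.83 (SE 1.20, unadjusted P = 3.46e-05, adjusted p = 0.0147), in 2 of 2 wounded libraries. In edgeR this was the only call among the 4, 1 of 4 beside 0.947% of genes, while DESeq2 called 2 of 4, *Krt6b* and *Krt16*. The edgeR call was lost without either wounded library, at 6.11 without replicate 1 and 7.31 without replicate 2. *Krt6a* had 2.40 (SE 0.62, unadjusted P = 0.00141, adjusted p = 0.0965), and it passed the threshold at 2.40 when any WT library was left out. *Krt16* had 0.90 (SE 0.23, unadjusted P = 0.00126, adjusted p = 0.091) and passed it at 0.91 without either WT wounded library and at 1.13 without *Grhl3*-cKO wounded replicate 2. *Krt17* had 0.39 (SE 0.21, unadjusted P = 0.0841, adjusted p = 0.634). At an unadjusted P under 0.05, 3 of 4 were higher, beside 5.28% of genes.

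Averaged over the genotypes, wounding was compared over all 7 libraries. *Krt6a* was higher by a log2 fold change of 1.80 (SE 0.38, unadjusted P = 0.000253, adjusted p = 0.0349). *Krt6b* was higher by 4.48 (SE 0.69, unadjusted P = 8.01e-06, adjusted p = 0.00513). *Krt16* was higher by 0.77 (SE 0.15, unadjusted P = 8.45e-05, adjusted p = 0.0198), and of the 3 it alone separated wounded from unwounded libraries. *Krt17* had 0.28 (SE 0.14, unadjusted P = 0.0558, adjusted p = 0.586). So 3 of 4 stress keratins passed in edgeR, beside 0.89% of genes, and the same 3 of 4 were higher at an unadjusted P under 0.05, beside 5.25%. DESeq2 called *Krt6b* and *Krt16* and not *Krt6a*, and with a minimum of 10 counts in every library edgeR called *Krt6b* alone.

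These averaged calls rest on the *Grhl3*-cKO unwounded library. Without it, in a comparison chosen after seeing the data, the 4 wounded libraries were set against the 2 WT unwounded ones. *Krt6a* then had a log2 fold change of 0.97 (SE 0.45, unadjusted P = 0.0544, adjusted p = 0.78), where its adjusted p ranged from 1.39e-36 to 0.78 over the alternatives. *Krt6b* had 1.92 (SE 0.69, unadjusted P = 0.0166, adjusted p = 0.663), within a range of 3.55e-126 to 0.663. *Krt16* had 0.56 (SE 0.17, unadjusted P = 0.00645, adjusted p = 0.536), within a range of 2.55e-07 to 0.536. *Krt17* reversed, to −0.18 (SE 0.15, unadjusted P = 0.257, adjusted p = 0.913). None of the 4 passed, as 0% of 13071 genes did in edgeR, and 2 of 4 were higher at an unadjusted P under 0.05, beside 3.94%. In all, 834 genes had an unadjusted P under 0.05 in that comparison, and DESeq2 was not run on it. Other single libraries mattered too. Without *Grhl3*-cKO wounded replicate 1, *Krt6a* at 1.40 and *Krt16* at 0.64 no longer passed, and without WT unwounded replicate 1, *Krt16* at 0.74 did not.

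The study's central contrast sets wounded *Grhl3*-cKO against wounded WT. *Krt17* had a log2 fold change of −0.71 (SE 0.17, unadjusted P = 0.000755, adjusted p = 0.783), and its P ranked 12 among 14045 genes. It was lower in 2 of 2 *Grhl3*-cKO libraries and stayed negative without each library in turn, from −0.86 to −0.53. *Krt6a* had −0.51 (SE 0.45, unadjusted P = 0.276, adjusted p = 1). *Krt6b* had −0.44 (SE 0.64, unadjusted P = 0.501, adjusted p = 1). *Krt16* had −0.18 (SE 0.18, unadjusted P = 0.344, adjusted p = 1). For these 3 the sign depended on a library: without WT wounded replicate 2 the values were 0.23, 1.06 and 0.08, and without *Grhl3*-cKO wounded replicate 2 they were 0.02, 0.04 and 0.05. Adjusted p passed for 0 of 4 and for 0% of genes in edgeR, 567 genes having an unadjusted P under 0.05, while DESeq2 called 3 genes. *Krt17* was the 1 of 4 that was lower at an unadjusted P under 0.05, beside 2.08% of genes.

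Whether the wound response differs between the genotypes was tested as a difference of differences, which also rests on the lone library. *Krt6b* had a log2 difference of 4.69 (SE 1.23, unadjusted P = 0.00161, adjusted p = 0.228). It passed the threshold without WT unwounded replicate 1, at 5.49, and without WT wounded replicate 2, at 6.21. *Krt6a* had 1.19 (SE 0.72, unadjusted P = 0.12, adjusted p = 0.806). For *Krt16* the value was 0.27 (SE 0.29, unadjusted P = 0.369, adjusted p = 0.922), and −0.01 without *Grhl3*-cKO wounded replicate 1. *Krt17* had 0.22 (SE 0.27, unadjusted P = 0.425, adjusted p = 0.941). Adjusted p passed for 0 of 4, beside 0.185% of genes in edgeR, and *Krt6b* was the 1 of 4 higher at an unadjusted P under 0.05, beside 3.83%. DESeq2 called 85 genes in this test and none of the 4.

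Replicates of the same condition differed most for the type II genes. The higher *Krt6a* replicate was 3.17 times the lower in WT unwounded, 2.29 times in WT wounded and 2.41 times in *Grhl3*-cKO wounded. For *Krt6b* these ratios were 6.75, 4.61 and 2.18. For *Krt16* they were 1.12, 1.37 and 1.34. *Krt17* differed by 1.28 times in each of the 3 groups, so its replicates lay as close as those of *Krt16*.

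The sign of the replicate difference was shared by part of the set. *Krt6a*, *Krt6b* and *Krt16* were higher in the same replicate in all 3 groups of 2, as were 13.8% of tested genes with *Krt6a*. *Krt17*, 1 of 4, went the opposite way in all 3 groups, as did 16.3% of genes. Among the 10 other keratins with a mean of at least 10 CPM, *Krt14* and *Krt5* shared the sign of *Krt6a*, and *Krt15*, *Krt79*, *Krt77* and *Krt80* had the opposite sign.

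Ratios of type II to type I partners were formed within each library from counts per kilobase, so no scaling between libraries enters. The ratio of *Krt6a* plus *Krt6b* to *Krt16* plus *Krt17* was 0.0928 and 0.341 in WT unwounded, 0.234 and 0.570 in WT wounded, 0.0914 in *Grhl3*-cKO unwounded, and 0.497 and 0.237 in *Grhl3*-cKO wounded libraries. The sum of the type II genes was below that of the type I genes in every library, and wounded and unwounded libraries overlapped. The type II genes had the larger shares of shared windows, and the part of these in the height of the ratio was not tested. Wounded libraries averaged 0.385 ± 0.175 (SD, n = 4) and unwounded ones 0.175 ± 0.144 (SD, n = 3). The difference of 0.21 had p = 0.171 in a two-sided exact permutation test, in which the smallest p that 35 arrangements allow is 0.0286, and an adjusted p of 0.267 over 7 ratios. It stayed between 0.148 and 0.293 when each library was left out in turn.

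*Krt6a* to *Krt6b*, the ratio of the type II paralogs, was 12.1 and 5.70 in WT unwounded, 5.88 and 2.93 in WT wounded, 71.2 in *Grhl3*-cKO unwounded, and 3.40 and 3.08 in *Grhl3*-cKO wounded libraries. *Krt6a* exceeded *Krt6b* throughout, least so where *Krt6b* was highest. Wounded libraries averaged 3.82 ± 1.38 (SD, n = 4) and unwounded ones 29.7 ± 36.1 (SD, n = 3), with an exact permutation p of 0.0571 and an adjusted p of 0.267. The unwounded mean rests on the *Grhl3*-cKO library, and without it, a value added after seeing the data, it was 8.91 ± 4.55 (SD, n = 2). *Krt16* to *Krt17* was 0.845 and 1.21 in WT unwounded, 1.04 and 1.83 in WT wounded, 1.41 in *Grhl3*-cKO unwounded, and 2.61 and 1.52 in *Grhl3*-cKO wounded libraries. This type I ratio (exact permutation p = 0.229, adjusted p = 0.267) was highest in *Grhl3*-cKO wounded replicate 1.

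*Krt6a* to *Krt16* gave an exact permutation p of 0.229, and *Krt6b* to *Krt17* gave 0.143, each with an adjusted p of 0.267. As reference pairs, basal *Krt5* to *Krt14* averaged 0.657 ± 0.0406 (SD, n = 4) in wounded and 0.775 ± 0.0692 (SD, n = 3) in unwounded libraries (exact permutation p = 0.0857, adjusted p = 0.267). Suprabasal *Krt1* to *Krt10* averaged 0.540 ± 0.0568 (SD, n = 4) and 0.585 ± 0.152 (SD, n = 3), with an exact permutation p of 0.657 and the same value after adjustment. No ratio of the 7 separated wounded from unwounded libraries without overlap. The highest *Krt5* to *Krt14* ratio was 1.32 times the lowest, against 6.24 times for the stress keratin ratio.

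**Figure D2:**
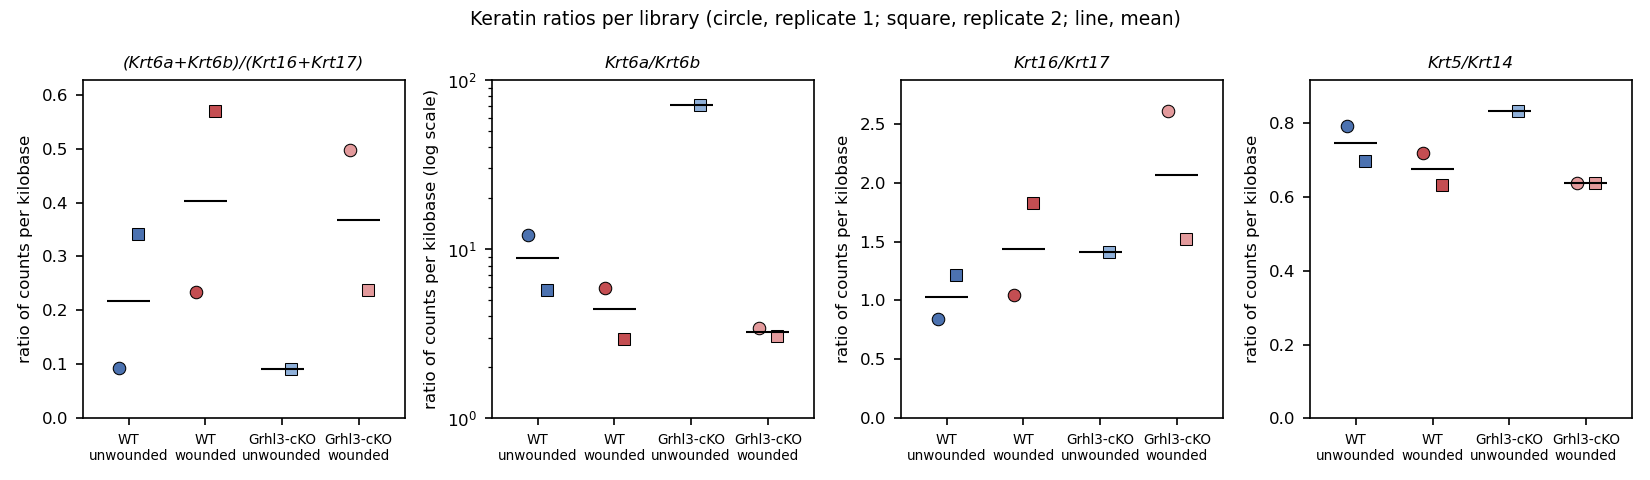
Ratios of counts per kilobase within each library for 4 keratin pairs, by condition, with lines at group means; the *Krt6a* to *Krt6b* axis is logarithmic. The stress keratin ratio spans 0.0914 to 0.570, and wounded and unwounded libraries overlap in each panel.

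Of the 10 other keratins with a mean of at least 10 CPM, 0 were higher and 4 lower at an unadjusted P under 0.05 in the averaged wound response, with a median log2 fold change of −0.30, where 5.25% of all genes were higher and 3.66% lower. Without the *Grhl3*-cKO unwounded library 1, *Krt78*, was higher and 2 were lower, with a median of 0.08. Only *Krt15*, a keratin of basal and bulge cells, passed the adjusted threshold in the averaged response, at −0.70 (adjusted p = 0.00393), and without that library it was −0.29 (adjusted p = 0.703). In WT alone the counts were again 0 and 4, with a median of −0.07, where 3.18% of genes were higher and 1.67% lower. Between the wounded genotypes 4 were higher and 0 lower in *Grhl3*-cKO, with a median of 0.42, where 1.96% of genes were higher and 2.08% lower, among them the suprabasal keratin *Krt10* at 0.87 (unadjusted P = 6.53e-05, adjusted p = 0.459) and *Krt1* at 0.77. The median over all tested genes lay between −0.01 and 0.02 in these comparisons.

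Genes most like each stress keratin were taken by Pearson's r of log2 CPM over the 7 libraries among 8460 genes, as a description in which all points share libraries and groups. For *Krt6a* they were *Ctsc* (r = 0.992), *Gja1* (0.981), *Stab1* (0.975), *Ppard* (0.975) and *Dlst* (0.972). For *Krt6b* they were *Sprr2h* (0.993), *2610528A11Rik* (0.977), *Hddc2* (0.976), *Rab31* (0.976) and *Gsdmc* (0.971). *Krt16* was followed by *Nav1* (0.984), *Tubb6* (0.983), *Map2k1* (0.980), *Pdpn* (0.978) and *Tle3* (0.969). For *Krt17* they were *Dtl* (0.985), *Sept7* (0.970), *Tmem18* (0.966), *Zxdc* (0.959) and *Nifk* (0.953). How high r rises by selection alone among 8460 genes, and how often such short lists overlap, were not computed. No gene was among the 5 of more than 1 stress keratin. Each r includes the *Grhl3*-cKO unwounded library, the lowest of the 7 for all 4 stress keratins, and was not computed without it.

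Genes tied to the stress keratins were read from lists, by direction at an unadjusted P under 0.05 in the averaged wound response. In that response 5.25% of all genes were higher, 3.66% lower and 0.89% past the adjusted threshold. Leaving out the *Grhl3*-cKO unwounded library, 3.94% of 13071 genes were higher, and 834 had an unadjusted P under 0.05 in either direction. Of 10 tested ligands and cytokines that induce stress keratins, of 13 on the list, 1 was higher and 0 lower. It was *Il24*, at 3.81 and 2.44 CPM in WT unwounded, 9.37 and 14.9 CPM in WT wounded, 0.445 CPM in *Grhl3*-cKO unwounded, and 10.4 and 10.6 CPM in *Grhl3*-cKO wounded libraries, with a log2 fold change of 3.25 (adjusted p = 0.00163). Without the *Grhl3*-cKO unwounded library *Il24* was 1.89 (adjusted p = 0.215), and 1 ligand was higher and 1 lower. *Il36a*, *Il36b* and *Il36g* were not listed in the counts, and *Epgn* was the most abundant. The median of the list was 0.12. None of the 14 receptors of these ligands was higher or lower, with a median of −0.06 and *Egfr* most abundant, and without the *Grhl3*-cKO unwounded library 2 were higher and 0 lower.

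Of 25 transcription factors tied to stress keratin genes, 0 were higher and 4 lower, beside 5.25% of genes higher and 3.66% lower. None of the 25 passed the adjusted threshold, with a median of −0.08 and *Jun* most abundant. The 4 lower ones were *Fos* (−0.38), *Fosb* (−0.46), *Klf4* (−0.39) and *Jund* (−0.45). *Fos*, an AP-1 subunit, was at 3287 CPM in *Grhl3*-cKO unwounded and at 1436 to 2041 CPM in the other 6 libraries. Without that library, 2 factors were higher and 0 lower, beside 3.94% of genes higher. Among 12 proteins that bind stress keratins or anchor keratin filaments, 0 were higher and 1, *Dst*, was lower (−0.34), with a median of 0.02 and *Dsp* most abundant. Without that library *Dst* reversed, to 0.30, and 1 of the 12 was higher and 0 lower.

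Of 18 alarmins and activation genes that accompany stress keratins, 13 were higher and 0 lower, 7 past the adjusted threshold, with a median of 1.30 and *Cd44* most abundant. *Gjb2*, which encodes a gap junction protein, had a log2 fold change of 3.46 (adjusted p = 0.00263), and it was higher without the *Grhl3*-cKO unwounded library too but did not pass (unadjusted P = 0.00194, adjusted p = 0.437). *S100a9*, an alarmin gene, had 0 counts in *Grhl3*-cKO unwounded and 4.41 to 18.6 CPM in the others, where WT unwounded libraries, at 7.81 and 7.44 CPM, lay above WT wounded replicate 1, at 4.80 CPM. Of all genes, 5.25% were higher in this response. In WT alone 7 of 18 were higher and 0 lower, none past the adjusted threshold, beside 3.18% of genes higher. Without the *Grhl3*-cKO unwounded library, 7 were higher and 0 lower, again none past it, beside 3.94% higher. Between the wounded genotypes 0 were higher and 4 lower in *Grhl3*-cKO, beside 2.08% lower.

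Of 10 NRF2 targets, 4 were higher and 1 lower, beside 5.25% of genes higher and 3.66% lower. Their median was 0.09, with *Txnrd1* most abundant, and none of them passed the adjusted threshold. Without the *Grhl3*-cKO unwounded library 1 was higher and 0 lower, beside 3.94% of genes higher. In WT alone 1 was higher and 0 lower, beside 3.18% of genes higher.

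Markers of epidermal and follicle cells were read the same way, since stress keratins are also made in follicles. Of 6 basal keratinocyte markers, 0 were higher and 0 lower, with *Krt14* most abundant at 12190.4 to 19442 CPM, and without the *Grhl3*-cKO unwounded library the counts were again 0 and 0. Of 8 tested suprabasal markers, 0 were higher and 5 lower, beside 5.25% of genes higher and 3.66% lower. None of the 8 passed the adjusted threshold, with a median of −0.36 and *Krt1* most abundant. Without the *Grhl3*-cKO unwounded library, which had the highest suprabasal level, 0 were higher and 1 lower, with a median of −0.06. Their summed level was 7106 and 7521 CPM in WT unwounded, 4404 and 5971 CPM in WT wounded, 11257 CPM in *Grhl3*-cKO unwounded, and 7448 and 9469 CPM in *Grhl3*-cKO wounded libraries. In wounded libraries this sum was higher and *Krt17* lower under the *Grhl3*-cKO label.

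Bulge and outer root sheath markers were lower for 7 of 10 and higher for 0, beside 3.66% of genes lower and 5.25% higher. The adjusted threshold was passed by 5 of the 10, beside 0.89% of genes. These markers had a median of −0.64, with *Krt15* most abundant. They summed to 5159 and 5202 CPM in WT unwounded, 4441 and 3828 CPM in WT wounded, 7116 CPM in *Grhl3*-cKO unwounded, and 3806 and 4120.3 CPM in *Grhl3*-cKO wounded libraries. The sum separated wounded from unwounded libraries in the direction opposite to *Krt16*. Without the *Grhl3*-cKO unwounded library 5 were lower and 0 higher, none past the adjusted threshold. Of 9 tested upper follicle and sebaceous markers, 0 were higher and 3 lower, beside 3.66% of genes lower, with a median of −0.15 and *Krt79* most abundant. Without the *Grhl3*-cKO unwounded library 0 of these 9 were higher and 5 lower. In that comparison 834 of 13071 genes had an unadjusted P under 0.05 in either direction.

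Companion layer and inner root sheath markers were higher for 0 and lower for 0 of 8 tested, with *Gata3* most abundant. In WT alone 2 were higher, *Krt25* and *Tchh*, and 0 lower, beside 3.18% of genes higher. *Krt25* and *Tchh* were highest in WT wounded replicate 1. The sum of the whole list was 314 and 318 CPM in WT unwounded, 538 and 319.5 CPM in WT wounded, 341 CPM in *Grhl3*-cKO unwounded, and 300.5 and 395 CPM in *Grhl3*-cKO wounded libraries. WT wounded replicate 1 was the highest, and it also had the highest *Krt17* but not the highest *Krt6a*, *Krt6b* or *Krt16*. Between the wounded genotypes 0 of these 8 markers were higher and 3 lower in *Grhl3*-cKO. The shares of all genes there were 1.96% higher and 2.08% lower. *Krt25*, 1 of the lower ones, was at 10.6 CPM in WT wounded replicate 1 and at 0 in WT wounded replicate 2. The list sum of WT wounded replicate 2 lay between those of the 2 *Grhl3*-cKO wounded libraries. In the comparison without the *Grhl3*-cKO unwounded library 6 were tested, with 0 higher and 0 lower. Of 4 tested hair cortex and cuticle markers, of 11, 1 was higher and 1 lower, in WT alone 2 were higher and 0 lower, and without the *Grhl3*-cKO unwounded library 2 were tested, with 0 higher and 0 lower. Their sum was highest in WT wounded replicate 1 and 1.97 to 7.04 CPM in the other libraries, *Krt32* being the most abundant and *Krt33b*, *Krt34*, *Krt81*, *Krt82*, *Krt85* and *Krt86* at 0 in all libraries. The part of follicle and suprabasal cells in the stress keratin levels was not tested.

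Markers of cells that the sort removes or does not target were read last. Of 6 tested leukocyte markers, 1 was higher and 1 lower, *S100a4* was the most abundant, and *Cd3e* was at 0 in all libraries. When the *Grhl3*-cKO unwounded library was left out 4 were tested, with 1 higher and 1 lower. Their sum was 25.1 and 36.5 CPM in WT unwounded, 17.4 and 43.6 CPM in WT wounded, 27.3 CPM in *Grhl3*-cKO unwounded, and 24.7 and 28.9 CPM in *Grhl3*-cKO wounded libraries. Of 9 tested endothelial markers, 6 were higher and 0 lower, beside 5.25% of genes higher. The most abundant was *Flt1*, which passed the adjusted threshold, and 7 of the 9 had 0 counts in *Grhl3*-cKO unwounded. Without that library 3 were higher and 0 lower, beside 3.94% of genes higher, and *Flt1*, at 3.52 (adjusted p = 0.334), did not pass. Their sum, 2.26 and 4.58 CPM in WT unwounded, 29.7 and 17.8 CPM in WT wounded, 0.815 CPM in *Grhl3*-cKO unwounded, and 13.7 and 12.4 CPM in *Grhl3*-cKO wounded libraries, separated wounded from unwounded libraries. Among single tested genes, 2.74% had all wounded above all unwounded libraries.

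For the fibroblast, melanocyte, and muscle and mural counts that follow, the shares of all genes were 5.25% higher and 3.66% lower. Of 8 tested fibroblast markers, 5 were higher and 1 lower, *Col3a1* past the adjusted threshold and *Col6a1* most abundant, and they summed to 43.6 to 72.3 CPM. With the *Grhl3*-cKO unwounded library left out 7 were tested, 1 higher and 1 lower, with a median of −0.07 and *Col3a1* at 0.72 (adjusted p = 0.889). Of 5 tested melanocyte markers, 1 was higher (2 of 4 tested without that library) and 1, *Mitf*, lower (−0.90, adjusted p = 0.035), *Mitf* being the most abundant and at −0.57 (adjusted p = 0.674) without that library. Of 6 tested muscle and mural markers, 2 were higher and 1 lower, *Acta2* at 4.08 (adjusted p = 0.0275) and *Cspg4*, the most abundant, at −0.75 (adjusted p = 0.0452), and they summed to 75.8 to 156 CPM. Without that library 5 were tested, 2 higher and 1 lower, and *Acta2* was 2.04 (adjusted p = 0.66) and *Cspg4* −0.57 (adjusted p = 0.623). The 1 tested erythroid marker, *Alas2*, was neither and was not tested without that library, and *Hba-a1*, *Hba-a2*, *Hbb-bs* and *Hbb-bt* were at 0 in all libraries. The part of these cells in the stress keratin levels was not tested.

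ATAC-seq lists of open chromatin regions were searched in and within 5 kb of each gene, with no replicates and so no test. The lists held 10769 regions in WT unwounded, 36872 in WT wounded, 29364 in *Grhl3*-cKO unwounded and 22474 in *Grhl3*-cKO wounded. In WT unwounded, 2 of 4 stress keratins had a region, beside 34.8% of 21911 protein-coding genes. In WT wounded, 3 of 4 had a region, beside 62.3%. In *Grhl3*-cKO unwounded the same 3 of 4 had a region, beside 58.5%. In *Grhl3*-cKO wounded, 2 of 4 had a region, beside 49.2%. Both type I genes, 2 of 4, had a region in all 4 lists, as had 32.8% of genes, and *Krt6b*, 1 of 4, had none in any list, as had 34.3%. With the lists set to equal length, *Krt16* had a region in both WT lists and *Krt17* in WT unwounded alone. The shares above are for the full lists, and the share of all genes at equal length was not counted.

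Upstream of *Krt16* the region lay at 100249002 to 100249308 on chromosome 11 in WT unwounded, with a fold enrichment of 3.85. In WT wounded it lay at 100249079 to 100249429, with 5.78, and 11.4% of that list had a higher enrichment. In *Grhl3*-cKO unwounded it lay at 100249071 to 100249454, with 3.97. The *Grhl3*-cKO wounded region lay at 100249122 to 100249428, with 3.94. All 4 overlap. The WT wounded value stood above the median of its list, 4.21, and the other values lay below the medians of their own lists.

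Downstream of *Krt17*, between the pair of type I genes and in no annotated gene, a region lay at 100255665 to 100255971 in WT unwounded, with a fold enrichment of 3.63. The WT wounded region was longer, 1672 bases from 100254504 to 100256175, with 3.91. In *Grhl3*-cKO unwounded there were 2, at 100254463 to 100254961 with 3.67 and at 100255701 to 100255999 with 3.58. The *Grhl3*-cKO wounded region lay at 100255575 to 100256182, with 3.80. Each of these values was below the median of its own list.

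Near *Krt6a* a region lay 137 bases before the gene start in WT wounded, at 101694444 to 101694679 on chromosome 15 with a fold enrichment of 4.37. The other lay 29 bases before it in *Grhl3*-cKO unwounded, at 101694336 to 101694518 with 3.91. Neither the unwounded WT nor the wounded *Grhl3*-cKO list held a region there. Of the other abundant keratins, *Krt14* had 1 region in WT wounded and 1 in *Grhl3*-cKO unwounded, *Krt5*, *Krt1* and *Krt77* each had 1 in *Grhl3*-cKO unwounded, that of *Krt1* and *Krt77* being the same region. *Krt80* had 3 in WT wounded and 2 in *Grhl3*-cKO unwounded, and *Krt15*, *Krt10*, *Krt79*, *Krt78* and *Krt24* had none. No keratin with a mean of at least 10 CPM other than *Krt16* and *Krt17* had a region in all 4 lists.

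**Figure D3:**
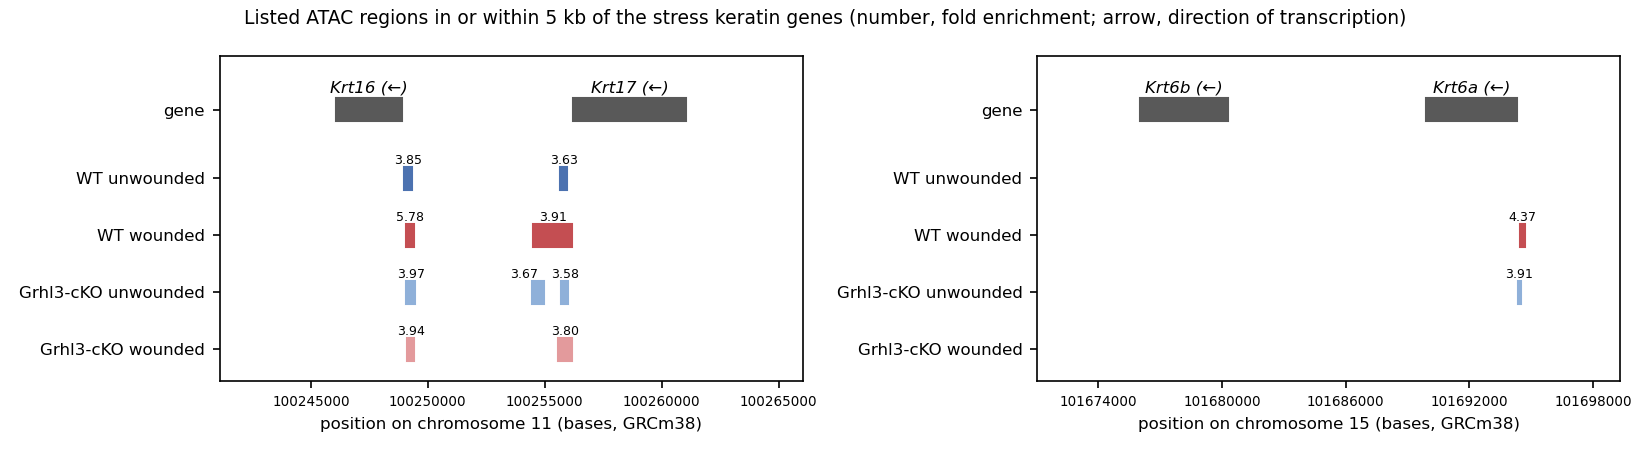
Listed ATAC-seq regions in or within 5 kb of the stress keratin genes in each library, by GRCm38 position in bases, with the fold enrichment above each bar. Regions upstream of *Krt16* and downstream of *Krt17* appear in all 4 libraries, and none lies near *Krt6b*.

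The bases downstream of *Krt17* that regions of all 4 full lists share are shown as an example of open chromatin near the set. They are from the RefSeq genome, build GRCm38, minus strand, 5′ to 3′, with the match to the AP-1 motif TGAGTCA, searched on both strands, in capitals. The window is chr11:100255701-100255971, 271 bases.
downstream of Krt17: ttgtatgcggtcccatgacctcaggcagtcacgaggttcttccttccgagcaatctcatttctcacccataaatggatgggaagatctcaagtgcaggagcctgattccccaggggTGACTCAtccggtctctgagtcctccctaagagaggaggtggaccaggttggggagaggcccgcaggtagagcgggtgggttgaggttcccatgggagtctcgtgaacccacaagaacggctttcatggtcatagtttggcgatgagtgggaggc

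AP-1 is a dimer of Fos and Jun proteins. The window held 1 match, where 21.3% of 36864 windows of equal length at WT wounded regions held at least 1. It did not hold the Grainyhead-like core AACNNGTT, found in 6.01% of such windows, or the antioxidant response core TGACNNNGC, found in 13.7%. Nor did it hold the AP-2 motif GCCNNNGGC (14.8%), the TATA box TATAAA (9.47%) or the SP1 motif GGGCGG (24.7%). A match is a run of letters and not a measured site.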

How the data were processed

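RNA counts and ATAC-seq region lists were taken as deposited. Values in the RNA files are raw counts per gene symbol deposited by the authors; the labels name FastQC, kallisto and build mm10, and which step made the counts is not stated. Rows tallying reads on no gene were left out, with reads not unique at 3.46% to 4.74% of all tallied reads, on genes or not. The region lists give fold enrichment and the −log10 of p and q as deposited by the authors; starts are given from 1.

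Members and gene lists were chosen with earlier results of these data known. CPM were taken over gene counts, and counts per kilobase over merged exons (GENCODE, GRCm38). edgeR 4.0.16 (limma 3.58.1, R 4.3.3) fitted 7 libraries in 4 groups with TMM factors and filterByExpr, leaving 14045 genes, and 5 contrasts were tested with the two-sided quasi-likelihood test. P values were adjusted by Benjamini-Hochberg over all genes tested, and differences with an adjusted p under 0.05 were called. DESeq2 1.42.0 was an alternative, beside RLE factors, all genes kept, a minimum of 10 counts per library, *Krt6a* and *Krt6b* summed, a replicate block, only the libraries compared, and each library left out. Ratios were compared by exact permutation, adjusted over 7. The fit was also run on simulated counts with the same change in both genotypes, and only the averaged contrast was read from it. Python 3.11.15, numpy 2.4.6, pandas 2.3.3, pysam 0.24.0 and matplotlib 3.10.9 were used.

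Named genes were the 4 members, abundant keratins (mean of at least 10 CPM), the 5 genes most like each member, and from each list the most abundant gene and up to 6 genes with an unadjusted P under 0.05 in the averaged or WT wound response; *Xist*, the Y-linked genes and *Grhl3* were also read as checks.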

Additional observations from a re-analysis of the deposited data

How the results depend on the processing

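Log2 fold changes of the 4 stress keratins were recomputed under each alternative. Scaling by RLE factors changed no direction and no side of the threshold for the 4 genes, nor did fitting only the 4 compared libraries, which was run for WT and for the wounded genotypes. With *Krt6a* and *Krt6b* summed into 1 gene, the sum did not pass within *Grhl3*-cKO (adjusted p = 0.0689), where *Krt6b* alone had passed, and it passed in the averaged response (adjusted p = 0.0239).

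Without a filter on low counts 16280 genes were tested, and the spread of each gene was set fully to the trend, while with the filter it was moderated by a prior of 12.8 degrees of freedom. More values then passed. In WT these were *Krt6a* (1.21), *Krt6b* (2.14) and *Krt16* (0.64). Within *Grhl3*-cKO they were *Krt6a* (2.40) and *Krt16* (0.90). Between the wounded genotypes it was *Krt17* (−0.71), and in the difference of responses *Krt6a* (1.19) and *Krt6b* (4.69). With at least 10 counts in every library, 11127 genes were tested and *Krt6b* within *Grhl3*-cKO (6.83) and *Krt6a* (1.81) and *Krt16* (0.77) in the averaged response no longer passed; the cause was not tested.

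DESeq2 did not call *Krt6a* in the averaged response (1.81) and called *Krt16* within *Grhl3*-cKO (0.91); the cause was not tested. DESeq2 called 24, 3, 252, 223 and 85 genes in WT, between the wounded genotypes, within *Grhl3*-cKO, in the averaged response and in the difference, where edgeR called 4, 0, 133, 125 and 26.

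With the replicate number as a replicate block, *Krt6a* within *Grhl3*-cKO (2.82) and *Krt6b* in the difference (5.68) passed, and *Krt6b* between the wounded genotypes reversed to 0.27. Samples that share a number are not stated to share an animal. The *Grhl3*-cKO libraries numbered 2, on which the gained calls draw, differed in *Xist* (1101 CPM unwounded, 1.75 CPM wounded) and *Ddx3y* (0 and 130 CPM), so they do not carry the RNA of 1 animal and the block does not pair them by animal.

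Leaving out each library in turn gave, in WT, 0.47 to 2.25 for *Krt6a*, 0.62 to 4.07 for *Krt6b*, 0.38 to 0.85 for *Krt16* and −0.02 to 0.37 for *Krt17*, which was also −0.01. Between the wounded genotypes the ranges were −1.32 to 0.23, −1.16 to 1.06, −0.44 to 0.08 and −0.86 to −0.53 in the same order, with further reversed values of 0.02, 0.04 and 0.05 for the first 3 genes. Within *Grhl3*-cKO they were 1.58 to 2.92, 6.11 to 7.31, 0.64 to 1.13 and 0.25 to 0.53. In the averaged response they were 1.40 to 2.33, 3.73 to 5.45, 0.64 to 0.88 and 0.19 to 0.38. In the difference they were 0.14 to 1.93, 2.76 to 6.21, −0.01 to 0.53 and 0.02 to 0.41. The ratio difference ranged from 0.148 to 0.293.

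Chosen after seeing the data, the comparison of 4 wounded with 2 WT unwounded libraries gave 0.97, 1.92 and 0.56 for *Krt6a*, *Krt6b* and *Krt16*, which no longer passed, and −0.18 for *Krt17*, which reversed. It had fewer libraries and lacked the one with the lowest levels of all 4 genes.

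Numbers of listed regions moved with the rule. Within gene bodies alone there were 0 near each gene. At a −log10 q of at least 5 there were 0, except 1 near *Krt16* in WT wounded. With lists of equal length there were 0 near *Krt6a* in WT wounded and *Grhl3*-cKO unwounded, near *Krt16* in both *Grhl3*-cKO lists, and near *Krt17* in all but WT unwounded. Within 10 kb there were 2 near *Krt16* in 3 lists and 3 in *Grhl3*-cKO unwounded, and 2 near *Krt17* in all but *Grhl3*-cKO unwounded.

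Groups held at most 2 libraries, the *Grhl3*-cKO unwounded group held a lone library, and *Krt6b* in that library rests on 56 counts. Intervals and floors cover counting error only. Shared sequence limits the split of reads between *Krt6a* and *Krt6b*, and levels and ratios between genes were not corrected for it. Region lists have no replicates and unequal lengths, so a missing region is not a closed one. Counts per gene cannot show which cells carry the RNA, and protein was not measured.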
